A study of Mus musculus with 6 samples.

Results

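The striated muscle miRNAs miR-1, miR-133, miR-206, miR-208b and miR-499 were followed in mouse skin after repeated exposure to ultraviolet A (UVA) light. They were chosen by name, as every entry of the deposited count table whose name reduces to miR-1a, miR-1b, miR-133a, miR-133b, miR-133c, miR-206, miR-208b or miR-499 once the arm and copy number are dropped. This gave 12 mature sequences of the 1480 in the table, led by mmu-miR-1a-3p, mmu-miR-206-3p, mmu-miR-133a-3p and mmu-miR-133b-3p (the species prefix is dropped from here on). Small RNA libraries were sequenced from the skin of 3 samples irradiated with UVA on alternate days over 4 months, to a summed 89.88 J/cm2, and of 3 samples without irradiation. No genetic change or other agent is named for either group, and the sources used here do not state the strain, age or skin site of the mice. Whether replicates came from different animals is not stated either, so p-values cover the spread among these 6 samples and nothing more. The question of the comparison was which skin miRNAs differ after UVA.

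These miRNAs are made almost entirely in striated muscle, which in mouse skin forms a thin sheet, the panniculus carnosus, below the dermis. miR-1 and miR-133 are cut from shared primary transcripts, and so are miR-206 and miR-133b. As background from muscle cells, miR-1 and miR-206 favour differentiation, miR-133 is known for restraining serum response factor, and miR-208b and miR-499 lie in introns of slow myosin genes and belong to the slow fibre programme. In bulk skin, fewer muscle fibres and less of these RNAs per fibre cannot be told apart.

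The sequences are shown because members share seeds, and the seed (bases 2 to 8, in capitals) largely sets which mRNAs a miRNA can pair with. All are mouse sequences from RefSeq, build GRCm38.p6, matched by name for 7 of the 12 entries, and each matched the deposited sequence in every base, with U written for T.
miR-206-3p: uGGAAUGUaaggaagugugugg
miR-133b-3p: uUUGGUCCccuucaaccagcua
miR-499-5p: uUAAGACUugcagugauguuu
miR-208b-3p: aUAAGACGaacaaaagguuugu
miR-1a-3p carries the same seed as miR-206-3p and differs from it at 4 positions outside the seed (11, 17, 21 and 22, counted from the 5′ end). miR-133a-3p carries the same seed as miR-133b-3p and differs from it only at position 22, the last base. miR-499-5p and miR-208b-3p share 6 of 7 seed bases. Predicted miRNAs aside, no entry outside the 12 had the seed of miR-206-3p, miR-133b-3p, miR-499-5p or miR-208b-3p.

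The opposite arms are shown because they come from the same hairpins. Of those shown, only miR-1a-1-5p also separates hairpin copies, those of miR-1a.
miR-1a-1-5p: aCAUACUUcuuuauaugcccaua
miR-206-5p: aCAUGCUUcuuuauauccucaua
miR-133b-5p: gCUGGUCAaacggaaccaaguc
The hairpins of miR-206 and miR-133b, which form the pair on chromosome 1, are given with both mature arms in capitals.
Mir206: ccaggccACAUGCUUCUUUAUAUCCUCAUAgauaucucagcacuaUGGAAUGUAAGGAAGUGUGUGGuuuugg
Mir133b: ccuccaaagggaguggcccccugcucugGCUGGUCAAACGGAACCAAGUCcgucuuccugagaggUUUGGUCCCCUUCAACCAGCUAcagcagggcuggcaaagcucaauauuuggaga
In GRCm38 Mir206 (chr1:20679010-20679082) and Mir133b (chr1:20682769-20682887) are both on the plus strand, 3.69 kb apart, each in an exon of the long non-coding RNA gene Gm28653. Mir1a-1 (chr2:180389048-180389124) and Mir133a-2 (chr2:180398379-180398482) lie 9.25 kb apart on the plus strand, outside other annotated genes. Mir499 (chr2:155622880-155622958, plus strand) lies in an intron of Myh7b and Mir208b (chr14:54975700-54975776, minus strand) in an intron of Myh7, both slow or cardiac myosin heavy chain genes.

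Reads assigned to miRNAs ranged from 8194504 to 12817972 per UVA library and from 7653819 to 17192811 per non-irradiated library. The authors' total reads ranged from 20472250 to 21896213 for UVA and from 26904012 to 30459804 for non-irradiated skin. These ranges are apart, and UVA and any batch behind the totals cannot be told apart. Non-irradiated replicates 1 and 2 had 21 and 34 entries with 1 to 9 reads, against 299 in replicate 3 and 579 to 591 in the UVA libraries, and results on scarce members carry that limit. Keratinocyte miRNAs were present throughout, with all 12 entries of the list (miR-203, miR-205, miR-200a, miR-200b, miR-200c and miR-141) tested and a summed level of 34242 to 85459 CPM in UVA and 44199 to 54516 CPM in non-irradiated skin. Of these 12 entries 2 rose, miR-205-5p (log2 fold change 2.97, edgeR adjusted p = 0.0045) and miR-141-5p (2.50, edgeR adjusted p = 0.049), and none fell. The 2 are 16.7% of the list, beside 21.8% of all tested miRNAs called. Of the 12 entries 9 were positive, and the median log2 fold change was 0.96, beside 0.27 over all tested miRNAs. CPM is the number of reads per 1000000 of the library after TMM scaling, edgeR's trimmed-mean correction of library size. The heart-specific miR-208a was represented by miR-208a-5p, with 1 read in UVA replicate 1 and none elsewhere.

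Mir1a-2 and Mir133a-1, the second copies of the chromosome 2 pair, lie on chromosome 18, as does Mir1b. miR-1a-3p and miR-133a-3p are each 1 entry of the table, so their reads are not divided between the copies.

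The members spanned a wide range of levels, and miR-1a-3p dominated. It was the most abundant miRNA in each of the 3 non-irradiated libraries and ranked 4, 8 and 14 in UVA replicates 1, 2 and 3. miR-206-3p ranked 8, 10 and 12 in non-irradiated replicates 1, 2 and 3, and 27, 27 and 7 in the UVA libraries. The order of mean levels in non-irradiated skin was miR-1a-3p, miR-206-3p, miR-133a-3p, miR-133b-3p, miR-499-5p, miR-1a-1-5p and miR-133a-5p, all sequences of 21 to 23 nucleotides counted as whole reads. The sources used here state neither the counting rule nor how read ends were trimmed, so this order and the ratios between different miRNAs describe the deposited counts and may not be those of the RNAs. The ranges of neighbours in that order did not overlap down to miR-499-5p, while miR-1a-1-5p overlapped both miR-499-5p and miR-133a-5p. In UVA skin the ranges of miR-1a-3p and miR-206-3p overlapped, as did those of miR-133a-3p and miR-133b-3p. The other 5 members, miR-133b-5p, miR-1a-2-5p, miR-1b-3p, miR-206-5p and miR-208b-3p, had at most 11 reads in any library and fell below the filter on low counts, so 7 of 12 were tested.

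**Figure D1:**
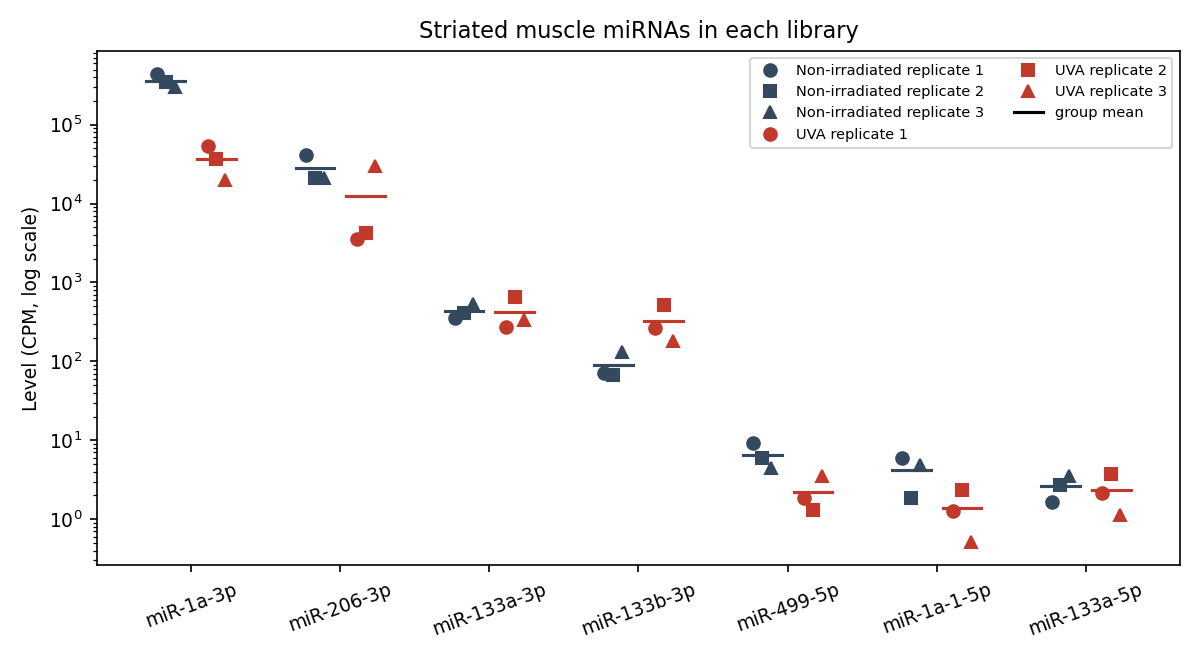
Level of the 7 tested striated muscle miRNAs in each library, in CPM on a log scale. Blue points are non-irradiated and red points UVA libraries, with circles, squares and triangles for replicates 1, 2 and 3 and a line at each group mean. miR-1a-3p is lower and miR-133b-3p higher in all 3 UVA libraries than in any non-irradiated library, miR-133a-3p overlaps, and miR-206-3p is low in UVA replicates 1 and 2 only.

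Of the 7 tested members, 1 fell and 1 rose after UVA, and 5 were not called. miR-1a-3p was 9.80 times lower in UVA skin and miR-133b-3p was 3.58 times higher, while miR-133a-3p, which shares primary transcripts with miR-1a-3p, was not called. Over all 499 tested miRNAs, edgeR's quasi-likelihood test called 8.22% lower and 13.6% higher at an adjusted p of 0.05 or lower, 21.8% in all. Some of the higher calls, such as miR-211-3p, had no read in non-irradiated skin. Low counts are largely missing from non-irradiated replicates 1 and 2, so these shares carry that limit. The median log2 fold change was -1.16 over the 7 members and 0.27 over all tested miRNAs. In CPM the groups did not overlap for 3 members, miR-1a-3p, miR-133b-3p and miR-499-5p, against 48.3% of all tested miRNAs. For miR-499-5p the groups overlapped as a share of miRNA reads.

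miR-1a-3p, the main miRNA of skeletal and heart muscle, stood at 437319, 352361 and 296932 CPM in non-irradiated replicates 1, 2 and 3. It stood at 54395, 36446 and 20088 CPM in UVA replicates 1, 2 and 3. Every UVA library was thus below every non-irradiated library. It fell by 3.29 on the log2 scale (SE 0.43, edgeR adjusted p = 0.00196), lower in 3 of 3 UVA libraries. It was also called by DESeq2, which called 38.3% of miRNAs, by limma-voom (30.3%), with no filter (8.38%) and with at least 10 reads in every library (29.1%). The fall remained past the threshold in each of the 6 fits that left out 1 library, with log2 fold changes from -3.74 to -2.98. Without non-irradiated replicates 1 and 2, the libraries short of low counts, the log2 fold change was -3.25 and the edgeR adjusted p was 0.0979, in a fit that called 0.168% of its miRNAs and in which the lone non-irradiated library is assumed to vary like the UVA ones. In the authors' deposited table miR-1a-3p has a log2 fold change of -3.19 and a q-value of 6.81e-06, where 3.99% of entries pass a q of 0.05 and 1.55% do so as lower.

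As a share of all miRNA reads, miR-1a-3p held 36.2%, 26.8% and 26.6% of the non-irradiated libraries and 6.65%, 4.42% and 2.39% of the UVA libraries. The group means were 29.9% ± 5.46 and 4.49% ± 2.13 (SD, n = 3 per group), a difference of -25.4 percentage points (2-sided exact permutation test, p = 0.1, which is the lowest value possible for 3 against 3). All 12 members together took 28.5% to 39.7% of miRNA reads in non-irradiated skin and 5.08% to 7.16% in UVA skin. Because one miRNA held so much of the library, the fit was repeated with scaling factors and library sizes computed without the 12 members. miR-1a-3p was then at -3.04 (SE 0.49, edgeR adjusted p = 0.00626). Scaled by total reads instead, it was at -2.49 and still called.

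**Figure D2:**
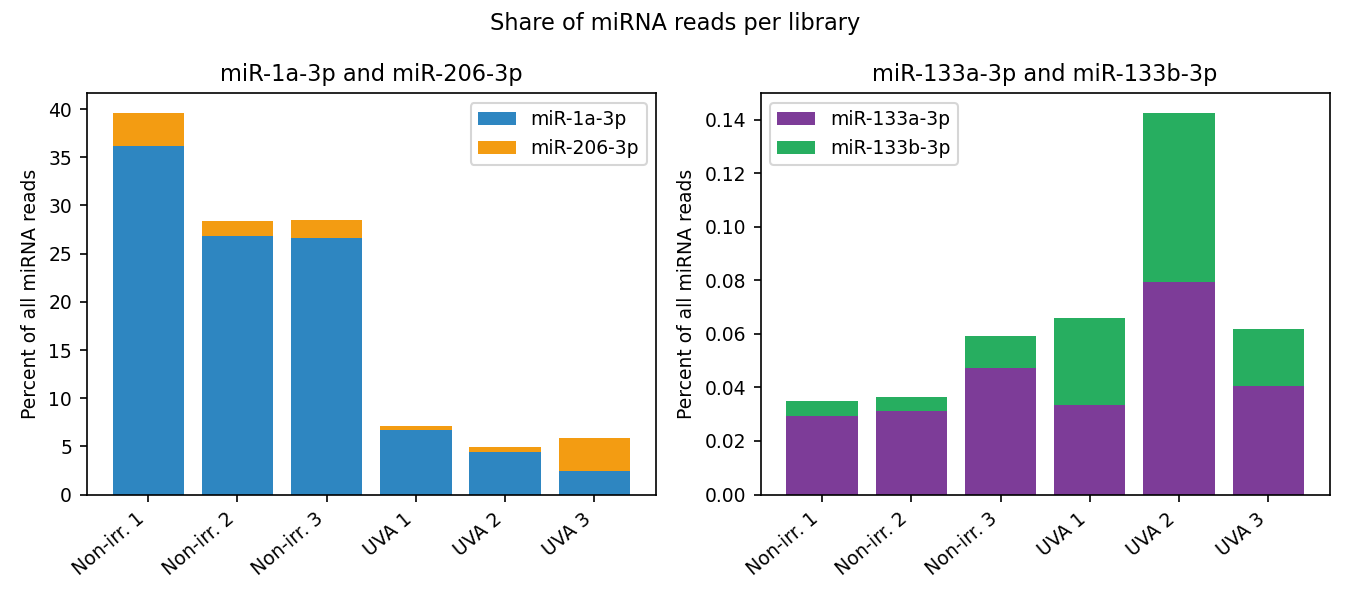
Share of all miRNA reads held by miR-1a-3p and miR-206-3p (left) and by miR-133a-3p and miR-133b-3p (right), in percent, for each library, as stacked bars. The blue miR-1a-3p bars fall from 26.6% or more in non-irradiated to 6.65% or less in UVA libraries, while the green miR-133b-3p bars are taller in every UVA library.

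miR-133a-3p, the partner of miR-1a-3p on both transcripts, stood at 353, 409 and 526 CPM in non-irradiated replicates 1, 2 and 3 and at 274, 654 and 339 CPM in UVA replicates 1, 2 and 3. The groups overlapped fully, with UVA libraries both below and above the non-irradiated range. The means were 430 ± 88.5 and 423 ± 203 CPM (SD, n = 3 per group) and the log2 fold change was -0.02 (SE 0.49, edgeR adjusted p = 0.976). Scaling by library size alone turned the log2 fold change to 0.51, and scaling by total reads to 0.78, and neither was called. miR-133a-5p, the minor arm, ranged from 1.66 to 3.49 CPM in non-irradiated and from 1.13 to 3.76 CPM in UVA skin and was not called (log2 fold change -0.14, SE 0.88, edgeR adjusted p = 0.932).

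Since both arms of miR-133a were read in every library, the balance of its arms could be tested. There were 20, 35 and 24 reads of the 5p arm in non-irradiated replicates 1, 2 and 3, and 34, 52 and 11 in UVA replicates 1, 2 and 3. The 3p arm had 3312 to 9032 reads in the 6 libraries. The log2 ratio of 5p over 3p differed by -0.14 between the groups (SE 0.73, limma adjusted p = 0.897), in a fit over 74 hairpins that called 36.5% of them. Without UVA replicate 3 the difference was 0.19.

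The ratio of miR-1a-3p to miR-133a-3p within a library needs no scaling between libraries. miR-1a-3p had 1239, 861 and 564 reads for each read of miR-133a-3p in non-irradiated replicates 1, 2 and 3, and 198, 55.7 and 59.2 in UVA replicates 1, 2 and 3. The groups did not overlap, and the log2 ratio was 9.72 ± 0.57 in non-irradiated and 6.44 ± 1.03 in UVA skin (SD, n = 3 per group). The difference was -3.28 (SE 0.68; exact permutation test, 2-sided, p = 0.1, adjusted over 4 ratios 0.2). Leaving out single libraries moved it between -3.88 and -2.96.

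miR-206-3p, which unlike miR-1 is specific to skeletal muscle and is known from regenerating fibres, stood at 41514, 21013 and 21029 CPM in non-irradiated replicates 1, 2 and 3. In UVA replicates 1, 2 and 3 it stood at 3589, 4284 and 29616 CPM. UVA replicates 1 and 2 were below the non-irradiated range and UVA replicate 3 lay inside it. With all libraries miR-206-3p was not called, at a log2 fold change of -1.16 with an SE of 0.75 (edgeR adjusted p = 0.26). Without UVA replicate 3 it was called lower, at -2.81 on the log2 scale (SE 0.47, edgeR adjusted p = 0.00762), and the fit without that library called 22.5% of its miRNAs. The 5p arm of miR-206 had 5, 2 and 9 reads in the UVA libraries and none in the non-irradiated ones. A count of 0 allows up to 0.437 CPM in non-irradiated replicate 3. No such limit holds for replicates 1 and 2, which list few entries with under 10 reads, so the groups are not compared for this arm.

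miR-133b-3p, the partner of miR-206, stood at 71.0, 67.8 and 131 CPM in non-irradiated replicates 1, 2 and 3 and at 263, 522 and 180 CPM in UVA replicates 1, 2 and 3. All 3 UVA libraries were above the non-irradiated range. It rose from 90.0 ± 35.7 to 322 ± 178 CPM (SD, n = 3 per group), which is 1.84 on the log2 scale (SE 0.57, edgeR adjusted p = 0.0459). The call sat close to the threshold. It was lost without UVA replicate 2 (log2 fold change 1.30, edgeR adjusted p = 0.181), where 6.74% of all miRNAs were called. It was also lost without non-irradiated replicate 1 (log2 fold change 1.48, edgeR adjusted p = 0.184, 10.4% of miRNAs called), replicate 2 (1.38, 0.197, 11.6%) or replicate 3 (2.15, 0.0604, 21.1%). Without both non-irradiated replicates 1 and 2 the log2 fold change was 0.97 (edgeR adjusted p = 0.552). In the authors' deposited table miR-133b-3p has a log2 fold change of 1.91 and a q-value of 0.151.

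**Figure D3:**
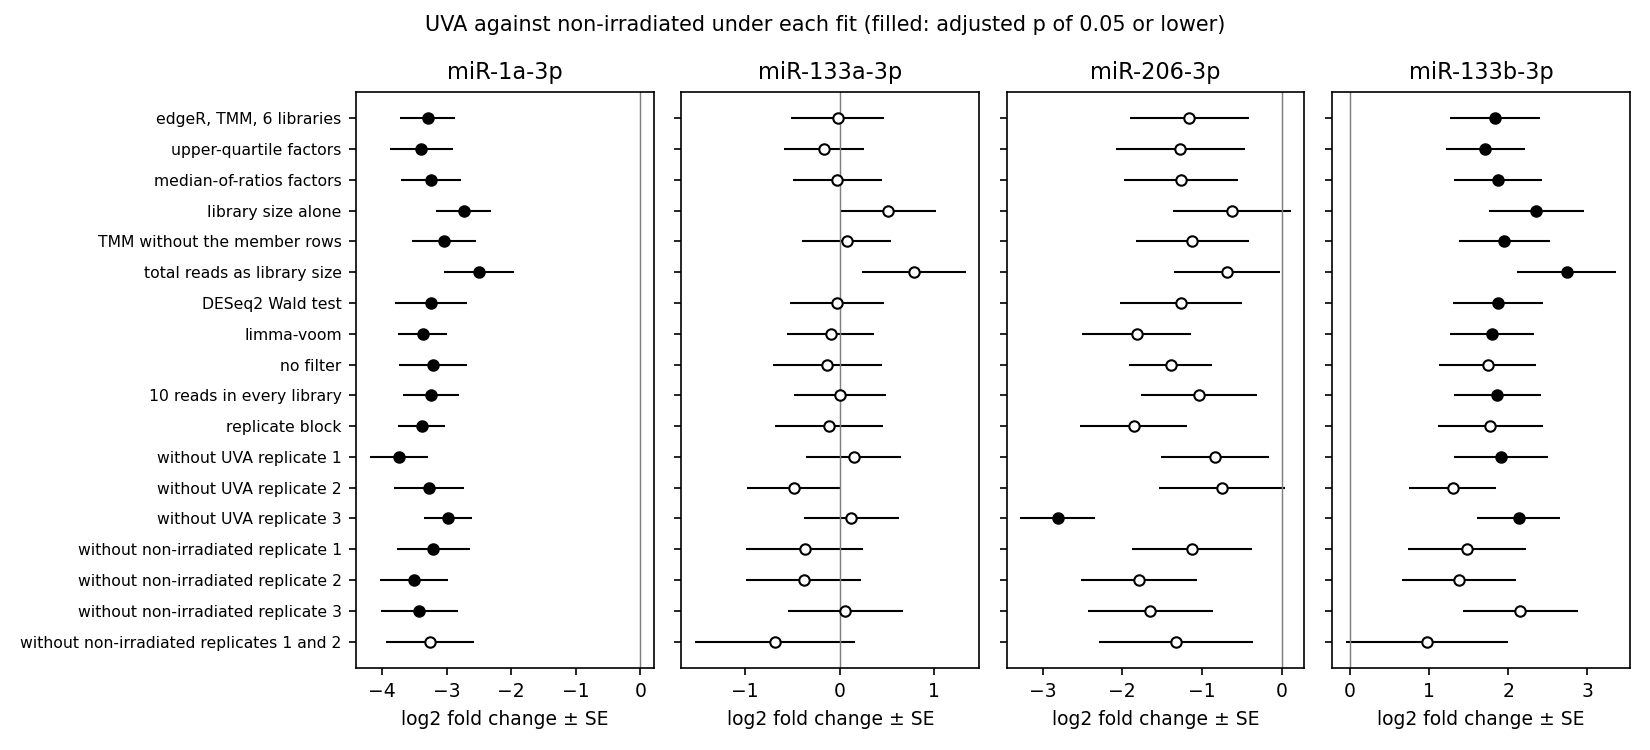
Log2 fold change of UVA against non-irradiated skin with its SE (horizontal axes) for miR-1a-3p, miR-133a-3p, miR-206-3p and miR-133b-3p under each of 18 fits (rows), with filled points at an adjusted p of 0.05 or lower. miR-1a-3p stays between -3.74 and -2.49, miR-133a-3p scatters around 0, miR-206-3p is filled only without UVA replicate 3, and miR-133b-3p stays positive and is filled in 11 fits.

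For the chromosome 1 pair the ratio overlapped between the groups. With 3 against 3 libraries the lowest possible p is 0.1, so none of the 4 ratios could pass 0.05. miR-206-3p had 584, 310 and 160 reads for each read of miR-133b-3p in non-irradiated replicates 1, 2 and 3, and 13.6, 8.21 and 164 in UVA replicates 1, 2 and 3. UVA replicates 1 and 2 were far below the non-irradiated range, and UVA replicate 3 was inside it. The difference of the log2 ratio was -3.54 (SE 1.44; exact permutation test, 2-sided, p = 0.2, adjusted over 4 ratios 0.267), and -4.86 without UVA replicate 3.

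Between the relatives miR-133b-3p and miR-133a-3p the shift was more even. miR-133b-3p had 0.201, 0.166 and 0.249 reads per read of miR-133a-3p in non-irradiated replicates 1, 2 and 3. It had 0.959, 0.798 and 0.531 in UVA replicates 1, 2 and 3, so that the groups did not overlap. The difference of the log2 ratio was 1.87 (SE 0.30; exact permutation test, 2-sided, p = 0.1, adjusted over 4 ratios 0.2). Leaving out single libraries moved it between 1.68 and 2.11. The sequences differ by 1 edit at the last base, so how reads were divided between the pair depends on the authors' counting rule, which the sources used here do not state.

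Between miR-206-3p and miR-1a-3p, which share a seed, UVA replicate 3 stood apart. miR-206-3p had 0.0949, 0.0596 and 0.0708 reads per read of miR-1a-3p in non-irradiated replicates 1, 2 and 3. The UVA replicates 1, 2 and 3 had 0.0660, 0.118 and 1.47, so that miR-206-3p outnumbered miR-1a-3p in UVA replicate 3 alone of the 6 libraries. The difference of the log2 ratio was 1.61 (SE 1.39; exact permutation test, 2-sided, p = 0.3, adjusted over 4 ratios 0.3), and 0.26 without UVA replicate 3.

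**Figure D4:**
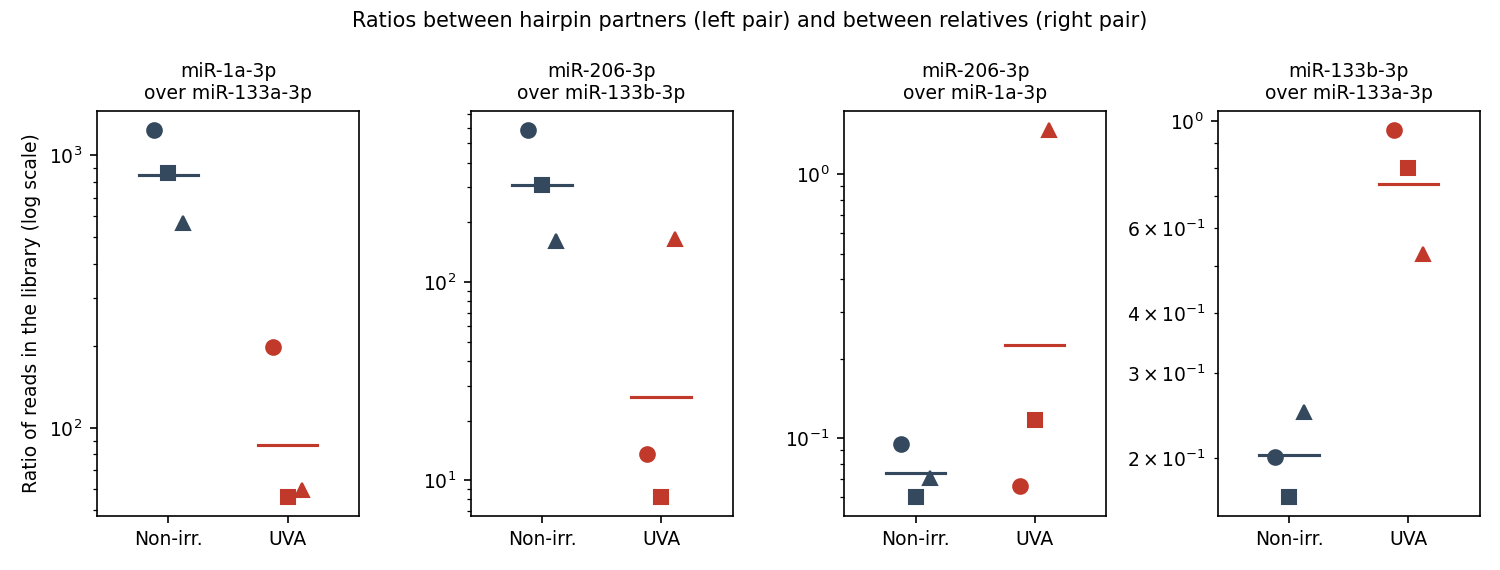
Ratio of reads between pairs of muscle miRNAs within each library, on log scales that differ between panels; circles, squares and triangles are replicates 1, 2 and 3 and lines are geometric means. Groups are apart for miR-1a-3p over miR-133a-3p and for miR-133b-3p over miR-133a-3p, while UVA replicate 3, at 164 and 1.47, leaves its group in the panels with miR-206-3p.

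The scarcer tested members miR-499-5p and miR-1a-1-5p had the sign of miR-1a-3p, and neither was called. miR-499-5p, from the slow myosin gene Myh7b, stood at 9.14, 6.03 and 4.51 CPM in non-irradiated replicates 1, 2 and 3 and at 1.85, 1.30 and 3.48 CPM in UVA replicates 1, 2 and 3. In CPM the groups did not overlap, but the difference did not pass the test (log2 fold change -1.57, SE 0.79, edgeR adjusted p = 0.159). As a share of miRNA reads the groups did overlap. UVA replicate 3 held 0.000415% and non-irradiated replicate 3 0.000405%, so the gap in CPM depended on the scaling. miR-1a-1-5p, the minor arm of the chromosome 2 copy of miR-1a, had 72, 24 and 33 reads in non-irradiated replicates 1, 2 and 3 and 20, 32 and 5 reads in UVA replicates 1, 2 and 3. These groups overlapped and miR-1a-1-5p was not called (log2 fold change -1.60, SE 0.95, edgeR adjusted p = 0.22). miR-1a-2-5p, the minor arm of the chromosome 18 copy, had 3 reads in non-irradiated replicate 3 and none elsewhere. miR-208b-3p had 1 read in each UVA library, 6 in non-irradiated replicate 3 and none in the other two. miR-1b-3p had 11 reads in non-irradiated replicate 2, 1 and 2 reads in UVA replicates 1 and 2 and none elsewhere, and miR-133b-5p had 3 reads in UVA replicate 1 only.

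Likeness to miR-1a-3p was measured as the root mean square difference between centred log2 CPM profiles over the 6 libraries, with a prior count of 2 reads, a description of 6 points that share library and scaling. Among members the closest were miR-1a-1-5p at 1.12 and miR-499-5p at 1.19, then miR-206-3p at 1.61, miR-133a-5p at 1.69 and miR-133a-3p at 1.78, with miR-133b-3p farthest at 2.65. The median over all other tested miRNAs was 2.13. The 5 closest non-members were miR-412-5p at 0.40, miR-542-5p at 0.47, miR-376c-3p at 0.56 and 2 miRNAs predicted by the authors. The predicted miRNAs had at most 1 read in any UVA library, so their distances rest on the prior count and are not given as a likeness. The named 3 were lower in UVA skin and far scarcer than miR-1a-3p, with at most 38 reads in a UVA library. miR-412-5p had only 3 reads (0.307 CPM) in UVA replicate 3, so the prior count weighs on its distance too. The same holds for the member miR-1a-1-5p, which had 5 reads in UVA replicate 3. The same measure was taken for miR-133b-3p and miR-206-3p after their values were seen. miR-133b-3p was closest to miR-93-5p at 0.19, miR-708-5p at 0.29 and miR-30b-5p at 0.33. miR-206-3p was closest to miR-467c-5p at 0.33, miR-1198-5p at 0.34 and miR-382-5p at 0.37, ahead of its nearest member miR-499-5p at 0.67.

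Other miRNAs with known roles in muscle were called in both directions, at a share near that of all miRNAs. Of 44 entries on a list of such miRNAs, 36 were tested, 8 rose, 2 fell and 26 were not called. Among the 8 is miR-222-5p, which had no read in non-irradiated skin, so its call carries the limit on low counts. The 10 called are 27.8% of those tested, beside 21.8% of all tested miRNAs, with a median log2 fold change of 0.39 beside 0.27 over all tested miRNAs. miR-221-3p, which holds back the cell cycle inhibitor p27, stood at 126, 101 and 135 CPM in non-irradiated replicates 1, 2 and 3 and at 467, 1255 and 1660 CPM in UVA replicates 1, 2 and 3, and rose in every UVA library (log2 fold change 3.22, edgeR adjusted p = 0.00647). Its cluster mate miR-222-3p rose from 53.0 ± 1.18 to 292 ± 219 CPM (SD, n = 3 per group; log2 fold change 2.46, edgeR adjusted p = 0.0242). miR-27b-3p, known in mouse for acting on Pax3 in muscle progenitors, rose from 8471 ± 2059 to 29263 ± 16358 CPM (1.79, adjusted p = 0.0233).

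miR-181a-5p, which rises in differentiating myoblasts, was higher in UVA skin (log2 fold change 1.77, edgeR adjusted p = 0.023), while miR-181a-2-3p fell from 86.8 ± 52.3 to 10.1 ± 3.43 CPM (-3.10, adjusted p = 0.00909). miR-322-3p fell from 395 ± 123 to 84.9 ± 20.8 CPM (-2.22, adjusted p = 0.0137). miR-214-5p, which is also a fibroblast marker, rose by 2.28 (adjusted p = 0.0123). Of the 10 calls, those of miR-221-3p, miR-181a-2-3p and miR-322-3p held without each library in turn, and the other 7 were lost in 2 to 5 of the 6 such fits.

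miR-486-5p, a merged entry of identical sequences that is abundant in both muscle and red cells, stood at 846, 1580 and 1623 CPM in non-irradiated replicates 1, 2 and 3 and at 307, 280 and 804 CPM in UVA replicates 1, 2 and 3. In CPM the groups did not overlap and the difference was not called (log2 fold change -1.54, SE 0.55, edgeR adjusted p = 0.0661). Without the TMM factors, which were 1.19 in UVA replicate 3 and 0.83 in non-irradiated replicate 1, the groups overlapped. The metabolic miR-378a-3p was at 5833 ± 1000 and 3376 ± 257 CPM in non-irradiated and UVA skin and was not called (log2 fold change -0.79, edgeR adjusted p = 0.129). These 2, both lower in UVA skin, were named after their values were seen. Other uncalled entries lay higher, among them miR-29b-3p (log2 fold change 2.56, edgeR adjusted p = 0.0585), miR-155-5p (1.70, 0.0661) and miR-378b (2.44, 0.0661), likewise named afterwards. Of the 36 tested entries of the list, 20 were positive and 16 negative. This split depended on the scaling, with 9 negative by library size alone and 8 by total reads.

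**Figure D5:**
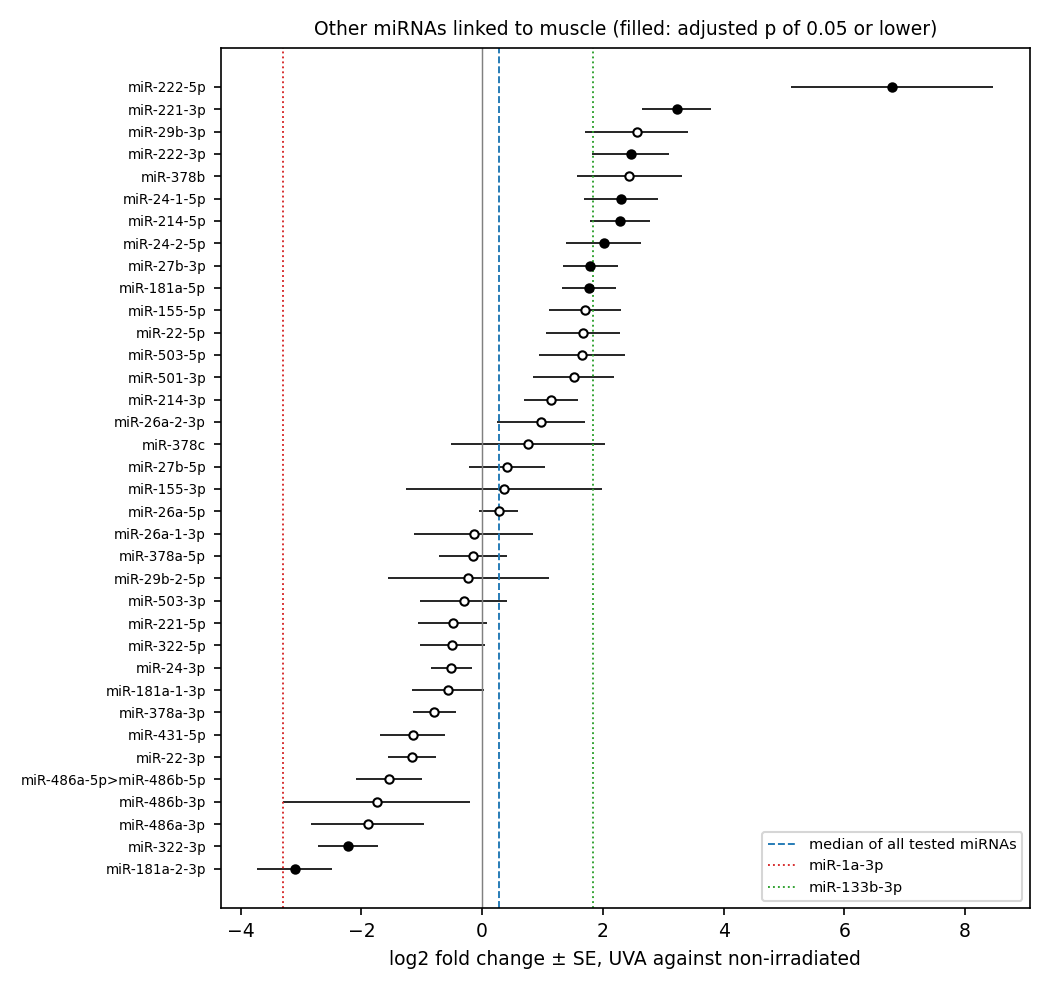
Log2 fold change with its SE for the 36 tested miRNAs of the list of other muscle-linked miRNAs, with filled points at an adjusted p of 0.05 or lower. Dotted lines mark miR-1a-3p at -3.29 and miR-133b-3p at 1.84 and the dashed line the median of all tested miRNAs at 0.27. Under TMM scaling list members lie on both sides of 0, 20 positive and 16 negative, and none is below miR-1a-3p.

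Markers of other cell types were called for some types and not for others, beside 21.8% of all tested miRNAs. Of the 12 keratinocyte entries given above, 16.7% were called. Of the 4 smooth muscle entries, miR-143-3p fell from 92245 ± 50051 to 30668 ± 2871 CPM (SD, n = 3 per group; log2 fold change -1.59, edgeR adjusted p = 0.0255), miR-143-5p rose by 2.36 (adjusted p = 0.0409) and both arms of miR-145a were not called. The summed level of that list was 51347 to 149319 CPM in non-irradiated and 28723 to 34852 CPM in UVA skin. Of 5 fibroblast entries 3 rose and none fell, with sums of 2816 to 4234 and 19107 to 28739 CPM. The 3 erythroid entries were not called, with sums of 538 to 1301 CPM in non-irradiated and 534 to 3127 CPM in UVA skin. Endothelial miR-126a summed to 20480 to 26427 and 14102 to 25741 CPM, with miR-126a-5p lower, and leukocyte entries to 666 to 1102 and 393 to 1388 CPM, with miR-150-5p lower. Melanocyte miR-211-5p rose (log2 fold change 4.62, edgeR adjusted p = 0.00628). miR-211-3p was also called, but had no read in any non-irradiated library, so the groups are not compared for that arm. The sums of both arms were 4.96 to 8.30 CPM in non-irradiated and 72.0 to 377 CPM in UVA skin. The hepatocyte miR-122-5p fell, with sums of 52.0 to 153 and 2.53 to 10.6 CPM. Every entry of these lists had reads, and their part in the results on the muscle miRNAs was not tested.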

How the data were processed

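Mature miRNAs were counted in 3 UVA and 3 non-irradiated libraries of mouse skin RNA. Per the labels' protocols, isolation used a mirVana kit and library preparation a TruSeq Small RNA kit. The deposited table gives raw counts, whole reads for each mature sequence. Per the submitters' processing notes Bowtie was used. Its version, the miRNA release, the counting rule and the genome were not stated in the sources used here. The deposited RPM values are counts divided by 1 constant per library, which gave the total reads. The fold changes, their log2 values, the group means of normalized counts (a signal per entry), p-values and q-values come from the authors' deposited comparison, per the file headers, made with a tool that is not stated. A further 2 emptied lines were not analysed here.

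After TMM scaling and filterByExpr at its defaults, edgeR 4.0.16 (R 4.3.3) gave quasi-likelihood tests of the counts. Benjamini-Hochberg adjustment was over 499 miRNAs, with a threshold of 0.05. A check on simulated counts, drawn from the same fit, does not cover the low counts missing from non-irradiated replicates 1 and 2. SE is the absolute log2 fold change over the square root of F. Ratios used a pseudocount of 0.5 and exact permutation tests over libraries. Arm ratios used limma 3.58.1 where both arms of a hairpin reached 10 reads in all libraries. A count of 0 allows 3 reads per library, except in non-irradiated replicates 1 and 2, where low counts are largely missing. Exact 95% intervals of single-library shares had half-widths of at most 0.032 percentage points and, like that limit, cover counting error only, since reads lack molecular identifiers. Replicates of a group all differed beyond sampling noise. Alternatives included DESeq2 1.42.0.

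Members and lists were chosen with earlier results of these data known. Named are all members, the 8 called muscle-linked miRNAs with the smallest p, smooth muscle miRNAs and the 5 miRNAs most like miR-1a-3p; exceptions are stated. Of the 8, miR-222-5p had no read in non-irradiated skin and is not described.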

Additional observations from a re-analysis of the deposited data

How the results depend on the processing

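The fall of miR-1a-3p kept its direction in 17 of 17 alternatives and its call in 16, the exception being the fit without non-irradiated replicates 1 and 2. miR-133b-3p stayed positive in all 17 and lost its call in 7, including no filter (adjusted p = 0.0507) and the replicate block (adjusted p = 0.0688). miR-133a-3p turned positive with library size alone (0.51), TMM without the members (0.073), total reads (0.78) and 10 reads in every library (0.0029). miR-133a-5p turned positive with the first 3 of these (0.40, 0.0020 and 0.73). With single libraries left out, miR-133a-3p lay from -0.48 to 0.15, miR-133a-5p from -0.65 to 0.20 and the arm difference of miR-133a from -0.42 to 0.19. The cause of these turns was not tested.

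Members called numbered 2, and 1 with no filter, 1 with the replicate block and 1 to 3 without single libraries. All miRNAs called numbered 109, 167 with total reads, 191 by DESeq2, and 38 to 124 without single libraries. Other muscle-linked miRNAs called numbered 10 (8 higher), 17 with library size alone (15 higher), 16 with total reads (15 higher), 19 by DESeq2 and 3 to 11 without single libraries. Without non-irradiated replicates 1 and 2, edgeR called 1 miRNA of all, 0 members and 0 others of the list, with 1 member and 7 of the list at an unadjusted p of 0.05 or lower. Scaling moved the median of all log2 fold changes from 0.27 to 0.81 (library size alone, 122 of 149 calls higher) or 1.07 (total reads, 145 of 167 higher), against 68 of 109 higher in the report. TMM factors did not overlap between the groups, at 1.19 to 1.22 in UVA and 0.76 to 0.90 in non-irradiated libraries. As a percent of total reads, the difference in miR-1a-3p was -11.1 percentage points.

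Deviations of same-numbered libraries from their group means had correlations of 0.085, -0.076 and -0.027. The numbers are not said to mark a shared litter, batch or day and were not taken as pairs. With the replicate block 106 miRNAs were called. The ratios between partners and relatives each moved by less than the spread between replicates in every alternative. The replicate block leaves these differences unchanged by construction, so it is no check on them. For miR-206-3p over miR-1a-3p that spread was wide, at 1.70, and the difference went from 1.61 to 0.26 without UVA replicate 3. Depth limits the 5 untested members, and the low counts missing from non-irradiated replicates 1 and 2 limit what their zeros show.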
